A study of Mus musculus with 8 samples.

Results

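The genes described here carry the glutathione and NRF2 antioxidant defence of mouse alveolar organoid cells. They are picked out by a rule on gene names, which uses no measured value. It was written with earlier results of these data known. The rule takes glutathione transferase genes whose symbol is Gst, a class letter (a, k, m, o, p, s, t or z) and a number. Transferase genes under other names, such as Hpgds, are not in it. The rule also takes the microsomal transferase and glutathione peroxidase genes. Added are 20 named genes of the NRF2 system, thioredoxin, superoxide and peroxide removal and the pentose phosphate pathway. The count table of 23284 genes held 52 of them. Polyadenylated RNA was sequenced from 4 organoid lines of lung cells of Sftpc-eGFP transgenic mice (SN2285, SN2286, SN2293 and SN2294), grown in 90% matrigel in FNHCAS medium without any further treatment. In these mice enhanced green fluorescent protein (GFP) is placed under the control of Sftpc, the surfactant protein C gene of alveolar type 2 (AT2) cells. Each line was sorted into GFP-positive and GFP-negative cells, with 1 library per sort and line, so both groups carry the transgene and differ in its fluorescence. The labels give neither the age and strain of the mice nor whether the lines came from different animals, so p-values measure the spread between these libraries.

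Glutathione is a tripeptide that cells hold in high concentration to take up oxidants and reactive chemicals. It is made by glutamate-cysteine ligase and glutathione synthetase, spent by peroxidases and transferases, and returned to its reduced form by glutathione reductase with NADPH, much of which comes from the pentose phosphate pathway. The transcription factor NRF2 (gene Nfe2l2) switches on many of these genes through antioxidant response elements, while KEAP1 holds it in the cytoplasm and marks it for degradation in unstressed cells. In the lung these systems meet inhaled oxidants, and club cells of the airway are known for their enzymes of chemical defence.

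Total counts ranged from 11202576 up to 16032633 in the GFP-positive group, 14408203 to 15583384 in 3 GFP-negative ones and 5910344 in the GFP-negative library of line SN2294. Marker genes set the sorts apart. The summed level of 10 AT2 markers was 44400 to 49133 CPM (counts scaled to a common library total) in the GFP-positive group against 4996 to 6894 CPM in the GFP-negative group, with all 10 higher in GFP-positive cells. These sums include Sftpc, the gene behind the reporter used for sorting, at 14817 to 19298 and 438 to 1268 CPM. Its difference is therefore no separate support for the sort. Basal cell markers, all 10 of them lower in GFP-positive cells, summed to 75.7 to 138 CPM there and to 2672 to 3234 CPM in GFP-negative cells. Markers near 0 in GFP-positive cells, such as Krt14 (0 to 0.686 CPM) and Sox15 (0.161 to 0.514 CPM), passed the filter on low counts through the GFP-negative libraries. The counts of called markers are therefore a description. For 8 club cell markers the sums were 57.9 to 396 and 1534 to 2264 CPM, with 4 of 7 tested lower and the club cell gene Scgb1a1 without a call (1.24 to 49.4 and 2.84 to 8.28 CPM). The 8 fibroblast markers reached 12.2 to 20.8 and 403 to 728 CPM, all 7 tested being lower. For 9 leukocyte markers the sums were 11.6 to 19.6 and 18.2 to 108 CPM, with 108 CPM in the GFP-negative library of line SN2294. Marco, Itgax, Tyrobp and Laptm5 were at 0 in every GFP-positive library and at 0 to 0.0657 CPM in the GFP-negative ones of the other lines. Cd68, the only leukocyte marker tested, was lower and made most of the sum outside that SN2294 library (11.3 to 19.4 CPM in GFP-positive cells). The 10 AT1 markers summed to 3059 to 4251 and 1885 to 2756 CPM, 6 higher and 1 lower of 9 tested. Ciliated cell markers were low, at 4.81 to 7 and 6.55 to 24.2 CPM, with 1 of 3 tested, Foxj1, lower in GFP-positive cells. Endothelial markers (0.572 to 0.91 and 0.723 to 1.89 CPM) were near 0. The part of these cell types in the results below was not tested, and in sorted bulk RNA fewer cells of a type and less RNA per cell cannot be told apart.

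Antioxidant genes were not shifted in one direction. Of the 52, 45 passed the filter on low counts. Among these, 14 were higher and 14 lower in GFP-positive cells at a false discovery rate (FDR) of 0.05 in edgeR's quasi-likelihood test, and 17 did not pass. The 28 called genes make 62.2% of those tested, where 40.7% of all 12848 genes tested were called, 18.9% higher and 21.8% lower. A gene that is low in one sort can pass the filter through the other alone, as Sod3 did, so these counts describe the measured genes only; without Sod3, 14 were higher and 13 lower. The median log2 fold change was 0.00 for the 45 genes and −0.01 for all genes tested, and the median absolute value 0.50 against 0.26. Throughout, log2 fold changes above 0 stand for higher levels in the GFP-positive sort, levels are CPM scaled with a composition factor and not corrected for transcript length, and n = 4 libraries per group.

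At least 2-fold differences were found for 13 genes, 10 lower (Gpx3, Sod3, Gpx2, Nqo1, Gstm2, Gsta4, Mgst2, Gsto1, Gsta3 and Gsr) and 3 higher (Gclc, Gstk1 and Mgst3), a share of 28.9% where 15.5% of all genes tested differed that much, 4.41% higher and 11.1% lower. Without Sod3 these were 9 lower and 3 higher genes. The lean to lower levels was that of the whole table, where 71.5% of the genes called with at least a 2-fold difference were lower. Of the 14 genes that were higher, 11 differed by less than 2-fold. The levels in the 2 sorts did not overlap for 27 of the 45 genes (60%), against 39.5% of all genes tested. All 28 called genes had the same direction in 4 of 4 lines, and 32 of the 45 tested genes did. The calls rest on these same libraries, so the agreement is a description and no separate support. With line as a term, 15 were higher and 14 lower, which is 64.4% of the 45 where 48.0% of all genes were called.

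**Figure D1:**
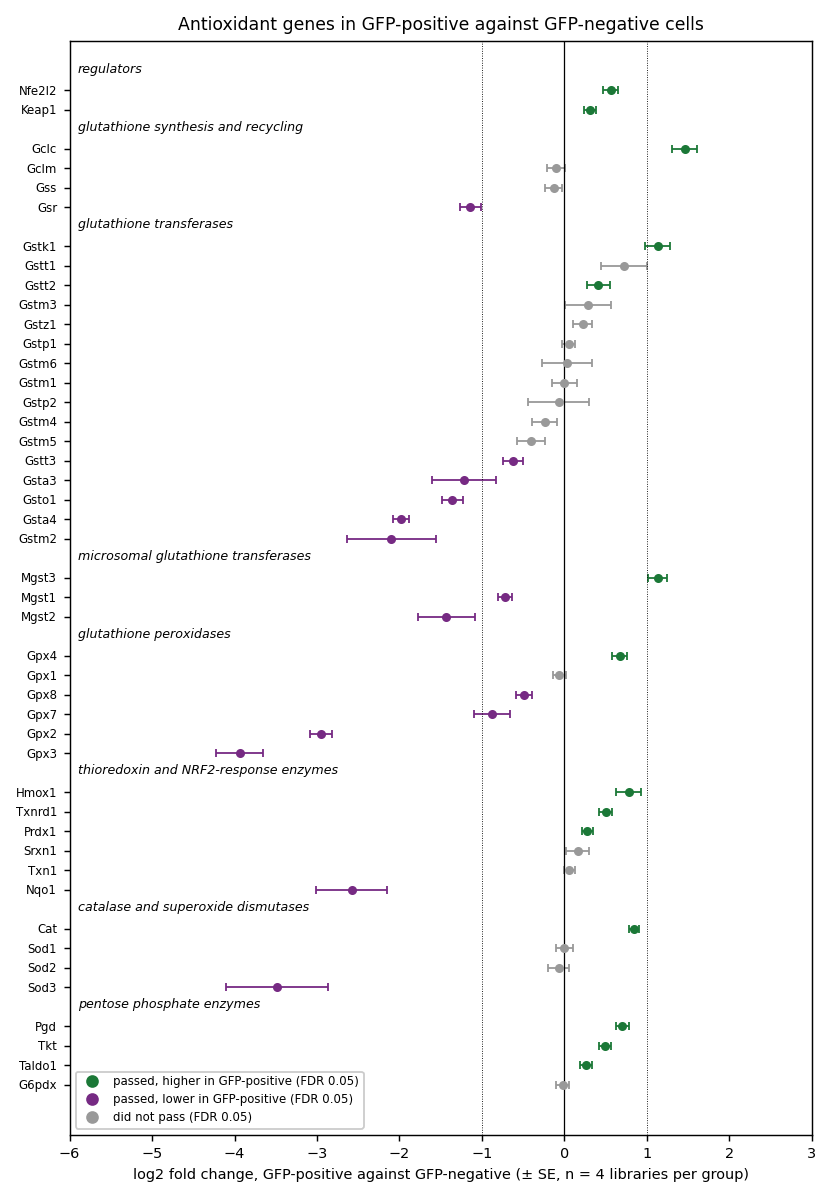
Log2 fold change of the 45 tested antioxidant genes, GFP-positive against GFP-negative cells (x axis; bars are ± 1 SE, n = 4 libraries per group), grouped by role, with dotted lines at 2-fold. Gclc lies farthest to the right at 1.46 and Gpx3 farthest to the left at −3.94; Sod3 passed the filter through GFP-negative libraries alone.

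Both regulators were slightly higher in GFP-positive cells. Among all genes tested 18.9% were higher, and 2 genes give only a coarse share. Nfe2l2 stood at 751, 687, 706 and 826 CPM in the GFP-positive libraries of lines SN2285, SN2286, SN2293 and SN2294 and at 583, 458, 476 and 500 CPM in the GFP-negative libraries. The lowest GFP-positive value lay above the highest GFP-negative one. The difference was 1.47-fold (log2 fold change 0.56 with SE 0.09, adjusted p = 4.2e-04). Keap1 was at 111, 98.3, 109 and 97.5 CPM in GFP-positive and at 92, 80.6, 79.2 and 83.5 CPM in GFP-negative libraries, in the same order of lines as in all lists that follow. These ranges did not overlap either, but the gap was small (log2 fold change 0.31 with SE 0.07, adjusted p = 0.0057). The call of Keap1 was lost with scaling by library totals alone, with no composition factor (log2 fold change 0.16, adjusted p = 0.10). That scaling shifted the median over all genes tested from −0.01 to −0.16 on the log2 scale and the calls among the antioxidant genes to 10 higher and 16 lower, so that 38.5% of them were higher in place of 50%; over all genes the share of calls that were higher went from 46.5% to 26.4%.

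RefSeq promoter windows of GRCm38.p6, from 250 bases before to 50 bases after a transcript start, were available for 46 of the 52 genes. They are shown because NRF2 binds DNA, although the genes were picked by name and not by binding of NRF2. The core of the antioxidant response element, searched as TGACNNNGC on both strands, was present in the window of 12 of the 46 genes (26.1%), of 14.0% of all 27025 genes with a window and of 17.4% of the genes tested that had one. Genes with a match were Nfe2l2, Prdx1, Txnrd1 and Pgd among those higher in GFP-positive cells (4 of 11 with a window), Mgst1 and Gsta3 among those lower (2 of 11), Gclm, G6pdx, Gstm5, Sod1 and Srxn1 among those without a call, and the untested Gstm7. The match of Pgd began 4 bases after the annotated transcript start and that of Srxn1 29 bases after it, so neither lies upstream. All other matches lay before the start. The Pgd stretch reads like the end of an intron followed by coding sequence. Its match is therefore probably not promoter DNA, although it counts in the shares above. Whether the annotated starts are used in these cells was not tested. Several of these genes are known targets of NRF2, so the share is a description. The stretches around the match are printed for the 6 called genes and for Gclm, the partner of Gclc, written 5′ to 3′ on the strand of the gene, with the match in capitals; where the capitals end in GTCA the element lies on the opposite strand.
Nfe2l2, chr2:75704875-75704913, minus strand: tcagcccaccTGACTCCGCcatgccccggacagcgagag
Prdx1, chr4:116685446-116685494, plus strand: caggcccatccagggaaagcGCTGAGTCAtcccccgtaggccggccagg
Txnrd1, chr10:82859094-82859142, plus strand: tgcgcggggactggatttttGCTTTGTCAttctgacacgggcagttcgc
Pgd, chr4:149166051-149166099, minus strand: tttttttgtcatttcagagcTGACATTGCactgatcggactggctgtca
Mgst1, chr6:138140451-138140499, plus strand: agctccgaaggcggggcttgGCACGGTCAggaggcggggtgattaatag
Gsta3, chr1:21240444-21240492, plus strand: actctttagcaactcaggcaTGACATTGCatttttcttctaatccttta
Gclm, chr3:122245403-122245451, plus strand: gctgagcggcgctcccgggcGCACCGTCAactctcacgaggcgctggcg
The match of Prdx1 reads TGACTCAGC and overlaps a match to the related AP-1 motif TGANTCA. That motif stood in the windows of 13.0% of the antioxidant genes, 8.97% of all genes with a window and 6.36% of the genes tested that had one. A match in letters says nothing about binding in these cells.

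The genes of glutathione synthesis and recycling split. Gclc encodes the catalytic subunit of glutamate-cysteine ligase, the rate-limiting enzyme of synthesis, and Gclm its modifier subunit. Levels of Gclc were 1029, 822, 912 and 1020 CPM in GFP-positive and 357, 262, 320 and 441 CPM in GFP-negative libraries. Every GFP-positive library was far above every GFP-negative one, at a 2.75-fold difference (log2 fold change 1.46 with SE 0.15, adjusted p = 1.6e-05). Gclm was at 56.4, 48.1, 47.2 and 39.2 CPM against 51.4, 49.9, 48.3 and 54.7 CPM. Its ranges overlapped, and no difference was detected (log2 fold change −0.10 with SE 0.11, adjusted p = 0.50). The ratio of raw counts of Gclc to Gclm, which no scaling changes, was 18.3, 17.1, 19.3 and 26 in GFP-positive and 6.94, 5.24, 6.61 and 8.07 in GFP-negative libraries; it was computed after the levels were seen and is given without a test.

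Glutathione reductase went the other way from Gclc. Gsr stood at 153, 139, 147 and 148 CPM in GFP-positive and at 278, 284, 304 and 434 CPM in GFP-negative libraries. The GFP-negative library of line SN2294 was the highest, and the ranges did not overlap. Its level was 2.21-fold lower in GFP-positive cells (log2 fold change −1.14 with SE 0.13, adjusted p = 3.6e-05), and −0.97 without that library (adjusted p = 1.7e-06). Gss, the glutathione synthetase gene, did not pass at 54.4 ± 5.31 (SD) against 59.5 ± 6.21 CPM (log2 fold change −0.13), and passed with scaling by library totals alone (−0.28, adjusted p = 0.041).

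**Figure D2:**
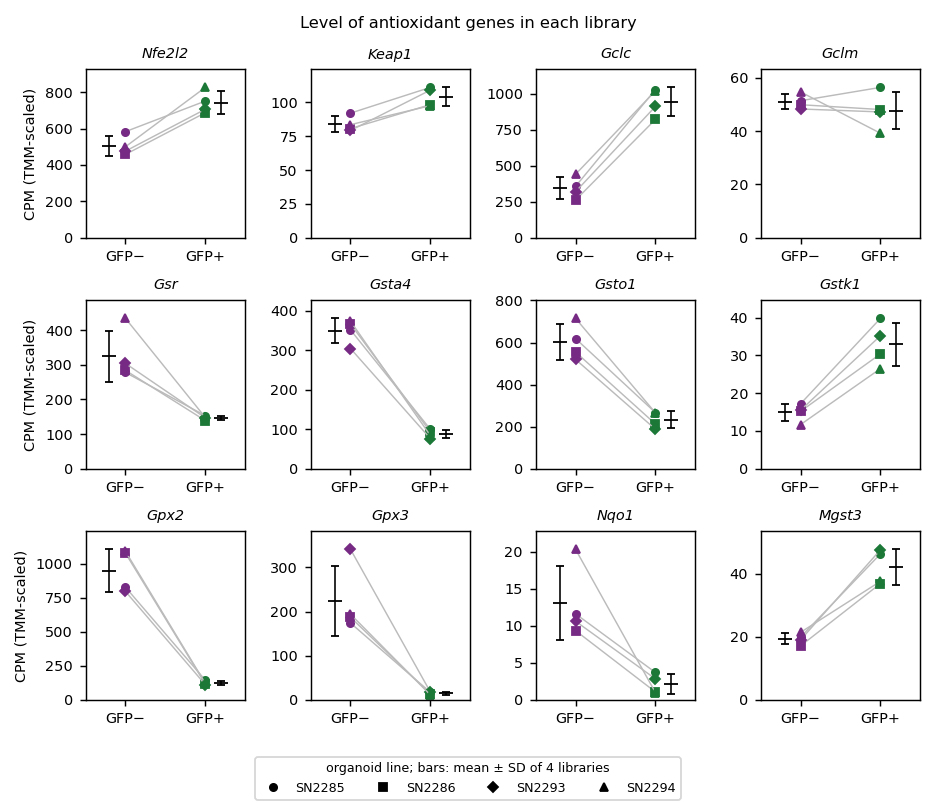
Level of 12 antioxidant genes in CPM (y axis, from 0) in GFP-negative and GFP-positive libraries; symbols are organoid lines joined by grey lines, and black bars are mean ± SD of 4 libraries. The sorts do not overlap in any panel other than that of Gclm. The 12 genes were chosen mostly among called ones. Over all 45 tested antioxidant genes 27 (60%) did not overlap, against 39.5% of all genes tested.

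Of 21 glutathione transferase genes, which attach glutathione to electrophiles, 16 were tested, 2 being higher and 5 lower in GFP-positive cells. That is 43.8% called, close to the 40.7% of all genes tested. The alpha class was lower in both tested genes, where 21.8% of all genes tested were lower. So few genes give only a coarse share. Gsta4, whose product removes the lipid peroxidation product 4-hydroxynonenal, was at 99.7, 93.3, 76.4 and 84 CPM in GFP-positive and at 351, 366, 304 and 373 CPM in GFP-negative libraries. The highest GFP-positive value was far under the lowest GFP-negative one, and the fitted difference was 3.95-fold (log2 fold change −1.98 with SE 0.10, adjusted p = 4.1e-08). Gsta3, a transferase that mouse club cells also express, was at 10.6, 6.96, 5.47 and 4.23 CPM against 11.3, 15.8, 9.86 and 27.9 CPM. Its ranges overlapped, line SN2285 showed almost no gap, and the gap was widest in line SN2294. The call of Gsta3 (log2 fold change −1.22 with SE 0.39, adjusted p = 0.034) did not hold once line was a term (−1.18, adjusted p = 0.10) and in 4 of 8 fits that left out 1 library, namely the GFP-positive one of SN2286, SN2293 or SN2294 or the GFP-negative one of SN2286 (adjusted p = 0.073 to 0.095 in those). Gsta1 and Gsta2 were at 0 to 6 counts per library and were not tested. They share 46.6% and 36.0% of their transcript 50-mers with each other in the GENCODE M21 annotation, so reads may have been split between them.

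The mu class was represented by 7 genes, 6 of them tested, and 1 passed. That is 16.7% over few genes, against 40.7% of all genes tested. Gstm2 was at 8.91, 18.8, 7.64 and 2.08 CPM in GFP-positive and at 36.4, 45.5, 34.4 and 40.3 CPM in GFP-negative libraries. The GFP-positive values spread widely over the lines, lowest in SN2294 and highest in SN2286, and still lay under all GFP-negative ones. The fitted difference was 4.27-fold (log2 fold change −2.10 with SE 0.54, adjusted p = 0.019). It did not pass when leaving out the GFP-positive library of SN2285 (adjusted p = 0.057) or SN2293 (0.061) or the GFP-negative one of SN2286 (0.052), with log2 fold changes of −2.68 to −1.74 over the 8 fits that left out 1 library. The other mu genes lay at −0.40 (Gstm5), −0.24 (Gstm4), 0.00 (Gstm1), 0.03 (Gstm6) and 0.29 (Gstm3). Gstm5 passed with line as a term (−0.41, adjusted p = 0.020) and, lower still, when the GFP-positive library of SN2285 was left out (−0.60, adjusted p = 0.0054). Gstm1 and Gstm3 have near copies, with 18.9% and 28.8% of their 50-mers in transcripts of other genes, so their counts are uncertain. Gstm7, at 2 to 15 counts per library, was not tested.

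Among the other classes, omega and kappa moved in opposite directions. Gsto1, an omega class enzyme that reduces dehydroascorbate, was at 267, 213, 188 and 266 CPM in GFP-positive and at 619, 555, 520 and 715 CPM in GFP-negative libraries. All GFP-negative values were above all GFP-positive ones (log2 fold change −1.36 with SE 0.13, adjusted p = 1.1e-05). Gstk1, the kappa class enzyme of mitochondria and peroxisomes, was at 39.8, 30.4, 35.2 and 26.5 CPM against 17.2, 15.2, 15.5 and 11.7 CPM. These ranges were separate as well, with the higher level in GFP-positive cells (log2 fold change 1.13 with SE 0.15, adjusted p = 7.9e-05). The theta genes diverged. Gstt3 was at 86.6, 75.6, 77 and 67.9 CPM in GFP-positive and at 148, 113, 113 and 96.2 CPM in GFP-negative libraries. It was lower in GFP-positive cells without overlap (log2 fold change −0.62, adjusted p = 0.0018), while Gstt2 was higher (0.41, adjusted p = 0.037). Gstt2 lost its call with scaling by library totals alone (0.26, adjusted p = 0.16) and in 5 of the 8 fits that left out 1 library (adjusted p = 0.057 to 0.10 in those), which omitted the GFP-positive library of SN2285 or SN2294 or the GFP-negative one of SN2286, SN2293 or SN2294. The pi genes Gstp1 (37.8 to 43 against 36.9 to 40.6 CPM, log2 fold change 0.05) and Gstp2 (−0.07) and the zeta gene Gstz1 (31.3 to 38 against 23.8 to 32.8 CPM, 0.22) did not pass. Gstp1 and Gstp2 share 33.7% and 49.1% of their 50-mers with each other, so their split of reads is uncertain. Gsto2 and Gstt4, at 0 to 6 counts per library, were not tested.

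All 3 microsomal transferase genes, whose products sit in membranes and also reduce lipid hydroperoxides, passed, in both directions. Among all genes tested 40.7% did. Mgst3 was at 46.3, 36.9, 47.6 and 37.6 CPM in GFP-positive and at 19.9, 17.1, 19 and 21.4 CPM in GFP-negative libraries. It was higher in GFP-positive cells without overlap (log2 fold change 1.13 with SE 0.12, adjusted p = 1.2e-05). Mgst2, which can make leukotriene C4, was at 2.31, 4.48, 1.13 and 1.95 CPM against 6.69, 7.82, 5.96 and 5.51 CPM. Its level was low everywhere and lower in GFP-positive cells (log2 fold change −1.43 with SE 0.34, adjusted p = 0.0049). Mgst1, the form of mitochondria and endoplasmic reticulum, was lower too, at 211 ± 20.6 against 348 ± 16.3 CPM (log2 fold change −0.72, adjusted p = 2.2e-05).

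The glutathione peroxidases gave the widest range. Gpx2, the form of gut and other epithelia and a known NRF2 target, was at 144, 116, 111 and 121 CPM in GFP-positive and at 829, 1080, 798 and 1093 CPM in GFP-negative libraries. The 2 sorts were far apart in every line, 7.73-fold in the fit (log2 fold change −2.95 with SE 0.13, adjusted p = 2.4e-08). Its pseudogene row Gpx2-ps1, which shares sequence with it, had 0 to 10 counts per GFP-positive library and 15 to 51 per GFP-negative one. Gpx3, which encodes the secreted peroxidase of extracellular fluid, was at 16.8, 13.2, 17.6 and 11 CPM in GFP-positive and at 174, 187, 341 and 194 CPM in GFP-negative libraries. The GFP-negative library of line SN2293 was the highest, and it also had the highest sum of fibroblast markers, 728 CPM; their part in the level of Gpx3 was not tested. The difference was 15.3-fold (log2 fold change −3.94 with SE 0.28, adjusted p = 1.5e-05), and the log2 fold change was −3.66 without that library.

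Gpx4, the peroxidase that reduces phospholipid hydroperoxides in membranes, was the only member of its family found higher in GFP-positive cells, at 195 ± 23.9 against 123 ± 4.92 CPM (log2 fold change 0.67 with SE 0.09, adjusted p = 7.8e-05). Of its 50-mers 34.7% also occur in a pseudogene transcript, so its count is less certain. The raw count ratio of Gpx2 to Gpx4, looked at after the levels were seen, was 0.521 to 0.688 in the GFP-positive sort and 6.38 to 9.09 in the other. Gpx7 and Gpx8, peroxidases of the endoplasmic reticulum, were lower in GFP-positive cells (log2 fold changes −0.88 and −0.49, adjusted p = 0.0076 and 0.0026). Gpx1, the ubiquitous cytosolic form, did not pass at 238 ± 16.1 against 249 ± 22.8 CPM. Gpx5 and Gpx6 had 0 counts in every library.

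Of 6 genes of the thioredoxin system and the NRF2 response, 3 were higher and Nqo1 was lower. That is 66.7% called over only 6 genes, where 40.7% of all genes tested were called. The thioredoxin reductase gene Txnrd1 was at 392, 380, 371 and 366 CPM in GFP-positive and at 249, 246, 262 and 309 CPM in GFP-negative libraries. Its values did not overlap (log2 fold change 0.50 with SE 0.08, adjusted p = 4.3e-04). The heme oxygenase gene Hmox1 was higher as well (140 ± 15.3 against 81.7 ± 17.2 CPM, log2 fold change 0.78, adjusted p = 0.0017). So was the peroxiredoxin gene Prdx1 (1170 ± 88.9 against 963 ± 31.2 CPM, log2 fold change 0.28, adjusted p = 0.0086), which lost its call with scaling by library totals alone (0.13, adjusted p = 0.17). Nqo1, a quinone reductase widely used as a readout of NRF2, was at 3.68, 1.05, 2.82 and 0.975 CPM in GFP-positive and at 11.6, 9.33, 10.6 and 20.3 CPM in GFP-negative libraries. Levels were low in both sorts, with 11 to 43 counts per GFP-positive library, and did not overlap. The fit gave a 5.99-fold lower level in GFP-positive cells (log2 fold change −2.58 with SE 0.43, adjusted p = 8.5e-04). Thioredoxin itself (Txn1, log2 fold change 0.06) and the sulfiredoxin gene Srxn1, whose product repairs overoxidised peroxiredoxins (0.16), did not pass. Srxn1 passed without the GFP-positive library of line SN2294, which was its lowest at 75 CPM (0.29, adjusted p = 0.044).

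Of the enzymes that act directly on superoxide and hydrogen peroxide, catalase differed with little spread. Cat was at 191, 193, 203 and 201 CPM in GFP-positive and at 113, 110, 110 and 106 CPM in GFP-negative libraries. The values within a sort lay close together, and the difference was 1.79-fold (log2 fold change 0.84 with SE 0.06, adjusted p = 6.4e-07). The cytosolic Sod1 (365 ± 16 against 367 ± 60.6 CPM) and the mitochondrial Sod2 (94.4 ± 9.11 against 99.3 ± 19.7 CPM) did not pass. Of Sod2's 50-mers 21.0% occur in transcripts of other genes. Sod3, the extracellular superoxide dismutase, was near the limit of detection, with 3, 1, 0 and 2 counts in GFP-positive and 14, 14, 36 and 12 counts in GFP-negative libraries. That is 0.257, 0.0953, 0 and 0.13 CPM against 0.936, 0.92, 2.19 and 1.89 CPM, without overlap. As Sod3 passed the filter on low counts through the GFP-negative libraries alone, these levels are a description and its fitted difference is given no weight.

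Pentose phosphate enzymes, which supply NADPH and sugar phosphates, were higher for 3 of 4 genes and lower for none. Among all genes tested 18.9% were higher and 21.8% lower, and 4 genes give only a coarse share. Pgd, the second NADPH-forming enzyme of the oxidative branch, was at 645, 549, 565 and 567 CPM in GFP-positive and at 373, 327, 338 and 389 CPM in GFP-negative libraries. The sorts were separate in every line (log2 fold change 0.70 with SE 0.08, adjusted p = 2.8e-05). The transketolase gene Tkt (710 ± 23.2 against 504 ± 23.4 CPM, log2 fold change 0.49, adjusted p = 8.3e-05) and the transaldolase gene Taldo1 (0.26, adjusted p = 0.0091) of the other branch were higher too. The call of Taldo1 was lost with scaling by library totals alone (0.11, adjusted p = 0.21). G6pdx, the first enzyme of the pathway, did not pass at 172 ± 11.4 against 175 ± 13.1 CPM.

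Organoid lines differed in few antioxidant genes. With the sort as a term, 4 of 45 (8.89%) passed a test of the 3 differences between lines, and 5.32% of all genes tested did. The theta gene Gstt1 varied most among the 4, by 2.16-fold between lines SN2285 and SN2294 (adjusted p = 0.0062). It was at 46.7, 40.6, 36 and 26 CPM in GFP-positive and at 31.8, 22.1, 23.4 and 11.8 CPM in GFP-negative libraries. SN2285 was highest and SN2294 lowest in both sorts. Between sorts Gstt1 missed the threshold (log2 fold change 0.72 with SE 0.28, adjusted p = 0.073). With line as a term it was higher in GFP-positive cells (0.76, adjusted p = 5.0e-05), in 4 of 4 lines, and it also passed without the GFP-positive library of SN2294 (adjusted p = 0.037) or the GFP-negative one of SN2285 (0.023). Gstt3 was highest in SN2285 too (1.40-fold over SN2294, adjusted p = 0.044). Gsto1 was lowest in SN2293 (1.39-fold, adjusted p = 0.030), and Sod2 was lowest in SN2285 (77.1 and 82.8 CPM) and highest in SN2294 (125 and 104 CPM; adjusted p = 0.049). The call of Sod2 was lost with 2 other scalings (RLE and upper quartile), with a stricter filter and without robust estimation, and that of Gstt3 without robust estimation. Gstt1 was called in every fit that left out 1 library, where the number of antioxidant genes called ran from 1 (Gstt1 alone, without a library of SN2286 or SN2293) to 9 (without the GFP-positive library of SN2294). The count over all genes moved with it, from 683 to between 370 and 539 in the fits that called Gstt1 alone and to 1462 in the fit that called 9.

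**Figure D3:**
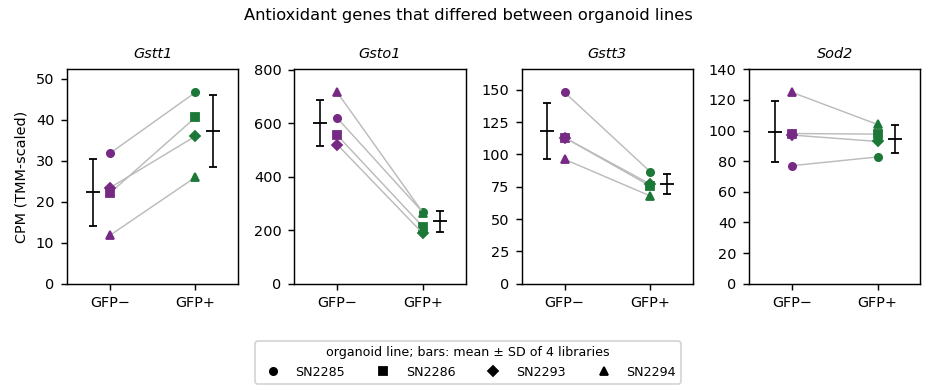
Level in CPM (y axis, from 0) of the 4 antioxidant genes that differed between organoid lines, in GFP-negative and GFP-positive libraries; symbols are lines joined by grey lines, and black bars are mean ± SD of 4 libraries. In the panel of Gstt1 line SN2285 lies highest and SN2294 lowest in both sorts.

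The wider pathway also held genes called in both directions. A list of 67 other NRF2 and redox genes, drawn from general knowledge, had 66 in the table and 63 tested. Of these 16 were higher and 20 lower (57.1% called, against 40.7% of all genes), with a median log2 fold change of −0.04. By at least 2-fold 5 were higher and 7 lower, 19% of those tested and close to the 15.5% of all genes. The lower ones in both counts include Aldh3a1 and Bach2, at 3 to 9 and 8 to 12 counts per GFP-positive library. Such genes can pass the filter through the GFP-negative libraries, so these counts describe the measured genes only. The higher genes with the smallest p were Prdx4, a peroxiredoxin of the endoplasmic reticulum (149 ± 5.08 against 63.4 ± 2.98 CPM, log2 fold change 1.23, adjusted p = 5.7e-08), and the NADPH-forming enzymes Me1 (226 ± 9.56 against 88.9 ± 6.34 CPM, 1.35, adjusted p = 6.6e-08) and H6pd (359 ± 17.4 against 142 ± 13.1 CPM, 1.34, adjusted p = 1.6e-07). The lower ones were Prdx6, a peroxiredoxin with phospholipase activity in lung (185 ± 5.23 against 325 ± 13.8 CPM, −0.82, adjusted p = 1.3e-06), Slc3a2, the heavy chain of the cystine transporter (113 ± 10 against 225 ± 20.8 CPM, −0.99, adjusted p = 3.2e-06), and the epoxide hydrolase gene Ephx1 (172 ± 36.6 against 621 ± 87.9 CPM, −1.85, adjusted p = 8.9e-06). Others, picked by their values, were the glutaredoxin gene Glrx (log2 fold change 2.01, adjusted p = 3.6e-07) and the cystine transporter light chain Slc7a11 (64.7 ± 21.3 against 360 ± 61.8 CPM, −2.48, adjusted p = 1.2e-04). The aldehyde dehydrogenase gene Aldh3a1, also picked by its values, had 3 to 9 counts (0.286 to 0.771 CPM) in GFP-positive libraries and passed the filter through the GFP-negative ones, so its levels are a description. It was at 28.2 CPM in the GFP-negative library of line SN2294 and at 5.78 to 6.69 CPM in the other GFP-negative ones. The NRF2 relative Nfe2l3 was lower (−2.76, adjusted p = 3.0e-05), Nfe2l1 slightly higher (0.26, adjusted p = 0.0061; 0.11 and 0.20 with scaling by library totals alone), and the repressor gene Bach1 did not pass (0.03); these 3 were picked with their values known. With scaling by library totals alone 13 of the list were higher and 25 lower, 34.2% of its calls being higher, where 26.4% were over all genes.

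**Figure D4:**
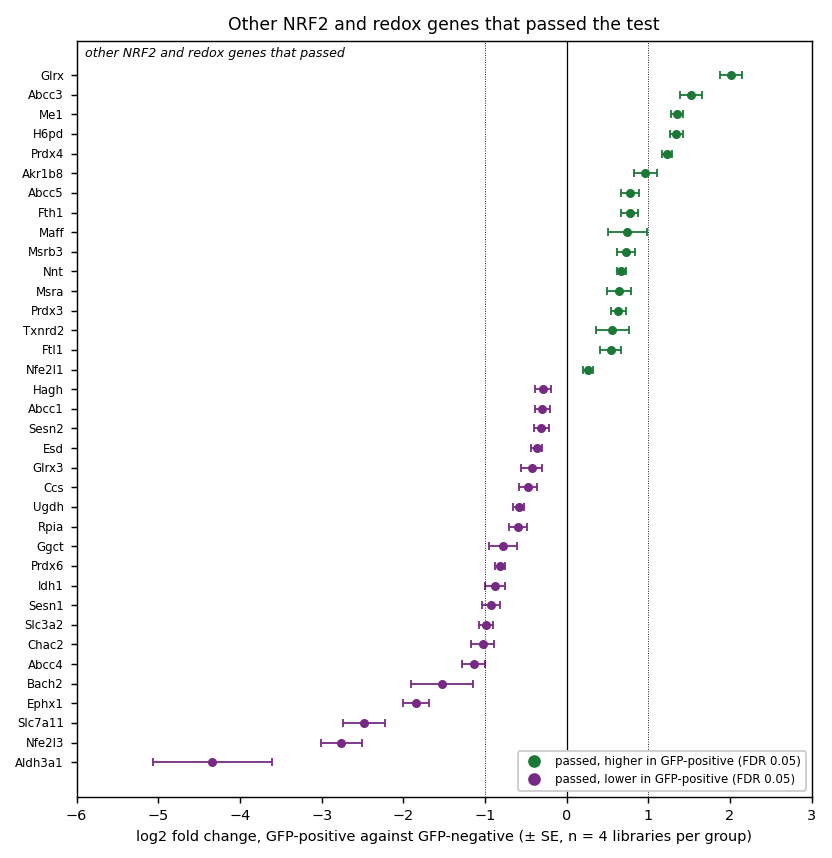
Log2 fold change of the 36 other NRF2 and redox genes that passed the test, GFP-positive against GFP-negative cells (x axis; bars are ± 1 SE, n = 4 libraries per group), with dotted lines at 2-fold. They run from Glrx at 2.01 to Aldh3a1 at −4.34, which passed the filter on low counts through GFP-negative libraries and moved to −3.49 without the one of line SN2294.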

How the data were processed

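The authors deposited a table of raw read counts, whole numbers for each gene symbol and library, without normalization. The submitters' processing notes name cutadapt 1.16, STAR 2.5.3a, featureCounts, Subread and the genome build mm9; the sources used here give no annotation, strand setting or treatment of multi-mapping reads, so overlapping, antisense and near-identical genes cannot be told apart. Per the labels, library preparation started from 300 ng of RNA and used 14 PCR cycles; counts of PCR products are not independent molecules. No pair of libraries held identical counts.

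Counts were analysed in R 4.3.3 with edgeR 4.0.16: filterByExpr (the equivalent of 10 counts at the median library size in 4 or more libraries, and 15 in total), TMM factors, and the robust two-sided quasi-likelihood test with the sort as the only term, fitted on all 12848 genes kept, with Benjamini-Hochberg adjustment over them and calls at 0.05. SE is the log2 fold change divided by the square root of F. Lines were tested together with the sort as a term. The script was tested on simulated data. Alternatives were line as a term (replicate block), DESeq2 1.42.0, other scalings and filters, fits without robust estimation and fits without 1 library or without line SN2294; applying them to the 12 other genes named was decided after seeing the data.

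The 2 libraries of a line come from the same culture line and deviated together from the group means (r = 0.367, 0.455, 0.322 and 0.404 over genes; different lines −0.003 or lower), so the blocked value is given where it changes a call.

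The genes and lists were chosen with earlier results of these data known. Values in each library are given for Nfe2l2, Keap1, Gclc, Gclm, genes called with at least a 2-fold difference and the gene with the smallest p of each role, and for Gstt1; of the wider list up to 3 genes per direction with the smallest p are named. Promoters are RefSeq windows of GRCm38.p6; shared 50-mers come from all GENCODE M21 transcripts, either strand. Both are of another build than mm9. Protein sequences were not used here.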

Additional observations from a re-analysis of the deposited data

Results flagged for a closer look

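In 5 of 114 groups of 4 libraries, 1 library stood apart from the others by the gap between it and its nearest neighbour as a share of the whole range, beyond Dixon's 95% limit; chance gives about 1 in 20. Gpx3 was at 341 CPM in the GFP-negative library of line SN2293 and at 174 to 194 CPM in the other GFP-negative ones (0.88). Gpx7 was at 2.74 CPM in the GFP-positive library of SN2293 and at 2.19 to 2.23 CPM in the others (0.927), with a log2 fold change of −0.96 without it (adjusted p = 0.012). Gpx8 was at 80.3 CPM in the GFP-negative library of SN2294 and at 101 to 104 CPM in the others (0.873), with a log2 fold change of −0.57 without it (adjusted p = 5.7e-04). Gsr was at 434 CPM in the GFP-negative library of SN2294 and at 278 to 304 CPM in the others (0.833), with a log2 fold change of −0.97 without it (adjusted p = 1.7e-06). Aldh3a1 was at 28.2 CPM in that library and at 5.78 to 6.69 CPM in the other GFP-negative ones (0.959). That library was also the shallowest and the highest in leukocyte markers, whose part in these 3 values was not tested.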

How the results depend on the processing

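Over 17 alternatives the antioxidant genes called higher numbered 10 to 16 and those called lower 12 to 16, against 14 each. The share called over all genes moved too, from 40.7% to between 30.8% (no filter) and 49% (without line SN2294, line as a term). Of the calls over all genes, 26.4% (library totals alone) to 48.3% (DESeq2) were higher, against 46.5%. None of the 45 tested antioxidant genes reversed a called direction. With line as a term (replicate block) 15 were higher and 14 lower; Gsta3 lost and Gstt1 and Gstm5 gained a call. Scaling by library totals alone cost the calls of Keap1, Prdx1, Taldo1 and Gstt2 and added Gss and Gstm5. The other calls that no longer passed were those of Gsta3, Gstm2 and Gstt2, without 1 library or, for Gsta3, without a filter on low counts (adjusted p = 0.061). The cause of these losses was not tested. Under the stricter filter, which asks for 1 CPM in every library of a sort, Sod3 was not tested and so had no call. The number of antioxidant genes that differed between lines, 4, was 1 to 9 without 1 library, 1 without a library of SN2286 or SN2293, 8 without the GFP-negative and 9 without the GFP-positive library of SN2294, and the count over all genes moved the same way, from 683 to between 370 and 1824. Few counts can widen errors, as for Sod3, but wide errors were not confined to genes with few counts. The SE was 0.54 for Gstm2 (2485 counts in all), 0.39 for Gsta3 (1079 counts) and 0.22 for Gpx7 (346 counts).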
